A study of Sus scrofa with 6 samples.

Results

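The genes described here encode 9 enzymes that make serine, pass its carbon to folate or make asparagine: PHGDH, PSAT1, PSPH, SHMT1, SHMT2, MTHFD1, MTHFD2, ALDH1L2 and ASNS. They are 9 of the 31908 pig Ensembl gene IDs in the deposited expression table. They were picked by symbol for their shared pathway, with the difference between treated and control cells already known, so that difference is given for them as a description and without a test. All libraries came from IPEC-J2 cells, a pig small intestinal epithelial line derived from the jejunum, grown in medium with serum. The CON group was given PBS for 24 h, and the CDCA group was given 50 μM chenodeoxycholic acid (CDCA), a primary bile acid, for 24 h. Each group had 3 libraries. The comparison asked how the transcriptome of the cells responded to the bile acid.

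Serine is built from 3-phosphoglycerate, an intermediate of glycolysis, in a chain of reactions catalysed in turn by PHGDH, PSAT1 and PSPH. Serine hydroxymethyltransferase then splits serine into glycine and a one-carbon unit carried by folate, in the cytosol (SHMT1) or in mitochondria (SHMT2). The one-carbon units are oxidised or reduced by MTHFD1 in the cytosol and by MTHFD2 in mitochondria, and serve the synthesis of purines, thymidylate and methionine. The serine synthesis genes, the mitochondrial folate genes and ASNS are known targets of the amino acid response, in which the transcription factor ATF4 is central.

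Values are TPM (transcripts per 1000000), a share of all transcripts in a library that is scaled by transcript length, and a gene's value is the sum over its listed transcripts. The listed TPM summed to between 351770 and 366073 per library, where a full library sums to 1000000. The table gives no read counts per gene, so the counting error of a value could not be computed. The study calls the libraries of a group biological replicates, but neither it nor the labels say whether they came from separate cultures, so p-values measure only the spread between these libraries. Of the epithelial markers listed, 4 of 5 reached a mean of 1 TPM, with a summed level of 855.7 to 911.6 TPM in CON and 619.6 to 673.8 TPM in CDCA. The lower sum came from CLDN1, a tight junction gene, with means of 474 TPM in CON and 202 TPM in CDCA, while EPCAM had means of 122 and 160 TPM and KRT18 of 65.6 and 75.1 TPM. CDH1, which encodes E-cadherin, was listed at no more than 0.58 TPM. Markers of mature enterocytes were near 0, with 0 of 4 reaching 1 TPM, a summed level of 0.28 to 0.77 TPM in CON and 0.02 to 0.35 TPM in CDCA, and CDX2 and FABP2 under 0.1 TPM in every library. The fibroblast markers summed to 1.26 to 1.77 TPM in CON and 0.89 to 1.09 TPM in CDCA, with 0 of 4 reaching 1 TPM. Of the endothelial markers 1 of 3 did, and their sum was 1.81 to 2.37 TPM in CON and 1.29 to 1.58 TPM in CDCA. Of the immune markers, 1 of 3 did, and their sum was 0.41 to 1.32 TPM in CON and 4.85 to 5.97 TPM in CDCA, mostly from CD68, while PTPRC, which encodes the leukocyte antigen CD45, was under 0.1 TPM throughout. The 13 mRNAs encoded in mitochondrial DNA made up 14.3% ± 0.64 of a CON library's listed TPM and 3.20% ± 0.28 of that of a CDCA library (SD, n = 3 each).

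Of the 9 enzyme genes, 7 averaged 1 TPM or more across the 6 libraries and so entered the fit over 8708 genes. SHMT1 and ASNS did not. ALDH1L2 entered only through its CDCA libraries. By the rule used for all genes (limma, false discovery rate, FDR, under 0.05 and a log2 fold change over 1 in size), 4 of the 7 lay past the threshold as higher in CDCA, beside 3.51% of all tested genes, and 1 as lower, beside 3.9%. The CDCA libraries all lay above the CON libraries for 6 of the 7 and all below them for 1, beside 33.7% and 27.8% of all tested genes. Nothing is read from these shares, because the genes were chosen with this contrast known.

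**Figure D1:**
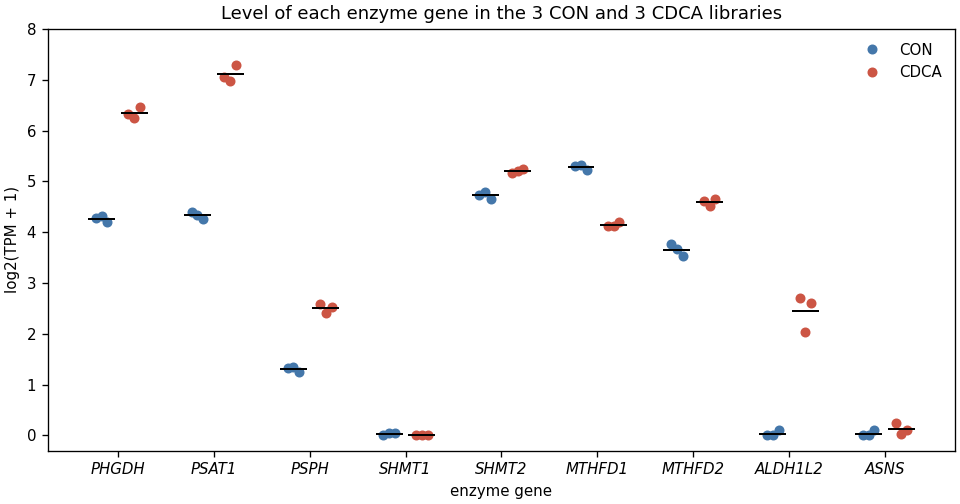
Level of each of the 9 enzyme genes, as log2(TPM + 1), in the 3 CON (blue) and 3 CDCA (red) libraries; points are libraries and bars are group means. PHGDH, PSAT1, PSPH, SHMT2, MTHFD2 and ALDH1L2 were higher in the CDCA libraries, MTHFD1 was lower in them, and SHMT1 and ASNS lay near 0 in both groups.

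PHGDH, phosphoglycerate dehydrogenase, catalyses the first step of serine synthesis and draws carbon from glycolysis. It was listed at 18.38, 19.01 and 17.33 TPM in the CON libraries and at 79.78, 75.12 and 87.29 TPM in the CDCA libraries. The lowest CDCA library lay far above the highest CON library. The means were 18.2 ± 0.85 TPM in CON and 80.7 ± 6.1 TPM in CDCA (SD, n = 3 each), a ratio of 4.43, and the log2 fold change of TPM + 1 was 2.09 (SE 0.07). PHGDH stood above 93.7% of the tested genes by level in CDCA, and its log2 fold change was the 44th highest of the 8708.

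PSAT1, phosphoserine aminotransferase, makes phosphoserine with glutamate as the nitrogen donor. Its levels were 20.21, 19.37 and 18.06 TPM in CON and 132.46, 124.95 and 155.6 TPM in CDCA. It had the highest listed level of the 9 genes in every CDCA library, and its CON and CDCA values were widely apart. The mean went from 19.2 ± 1.1 TPM in CON to 138 ± 16 TPM in CDCA (SD, n = 3 each), a ratio of 7.17. The log2 fold change of 2.77 (SE 0.09) ranked 15th among all tested genes.

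PSPH, phosphoserine phosphatase, releases free serine in the last step. Its listed level was far below those of the others of the chain, at 1.52, 1.56 and 1.38 TPM in CON and 4.97, 4.3 and 4.78 TPM in CDCA. The groups did not overlap, with means of 1.49 ± 0.095 TPM and 4.68 ± 0.35 TPM (SD, n = 3 each), a ratio of 3.15. On the scale of TPM + 1 the log2 fold change was 1.19 (SE 0.09), a scale that understates the change of genes at such low levels, and with a pseudocount of 0.1 TPM it was 1.59.

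The 3 enzymes of the chain thus kept neither the same level nor the same ratio between groups. Their summed TPM was 38.9 ± 1.9 in CON and 223 ± 22 in CDCA (SD, n = 3 each), a ratio of 5.73, and PSPH was the smallest part of it in every library. The ratio of PSAT1 to PHGDH within a library, chosen after the values were seen, was 1.10, 1.02 and 1.04 in CON and 1.66, 1.66 and 1.78 in CDCA. PSAT1 was thus about level with PHGDH in CON and above it in each CDCA library. The ratio of PHGDH to PSPH, chosen in the same way, was 12.3 ± 0.25 in CON and 17.3 ± 1.1 in CDCA (SD, n = 3 each).

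SHMT2, the mitochondrial serine hydroxymethyltransferase, was listed at 25.67, 26.6 and 24.08 TPM across CON and at 34.89, 35.64 and 36.86 TPM across CDCA. The groups were apart, but as a log2 fold change the difference was the smallest in size among the 7 genes in the fit. The means were 25.5 ± 1.3 and 35.8 ± 0.99 TPM (SD, n = 3 each), a ratio of 1.41, with a log2 fold change of 0.48 (SE 0.05). Taken from its most abundant listed transcript alone, the log2 fold change was 0.25. SHMT1, the cytosolic enzyme, was listed at 0, 0.04 and 0.04 TPM across CON and at 0 in each CDCA library. No fold change is given for it. The listed transcripts cover only part of each library's TPM, and GOT1, a widely expressed aminotransferase gene picked once its values were known, stood at 0 in every library, so a value near 0 in this table does not show that a gene was not expressed.

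MTHFD1, the trifunctional folate enzyme of the cytosol, was the one gene of the 9 that lay past the threshold in the lower direction. It was listed at 38.51, 39.05 and 36.28 TPM across CON and at 16.47, 16.46 and 17.32 TPM across CDCA. Both groups were tight and far apart, with means of 37.9 ± 1.5 and 16.8 ± 0.49 TPM (SD, n = 3 each). The level was 2.27-fold lower in CDCA, and the log2 fold change was -1.13 (SE 0.05).

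MTHFD2, the mitochondrial methylenetetrahydrofolate dehydrogenase and cyclohydrolase, went the other way. Its levels were 12.59, 11.74 and 10.58 TPM in CON and 23.36, 21.83 and 24.27 TPM in CDCA. The groups did not overlap, and the means of 11.6 ± 1.0 and 23.2 ± 1.2 TPM (SD, n = 3 each) gave a ratio of 1.99. The log2 fold change of 0.94 (SE 0.08) lay just inside the size of 1 that a call needed, so MTHFD2 was not among the genes past the rule.

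The ratio of MTHFD2 to MTHFD1 within each library puts the mitochondrial and the cytosolic enzyme side by side. It was 0.327, 0.301 and 0.292 in CON and 1.42, 1.33 and 1.40 in CDCA. By listed TPM, MTHFD1 was the higher of the pair in every CON library and MTHFD2 in every CDCA library. The group means were 0.306 ± 0.018 and 1.38 ± 0.049 (SD, n = 3 each), a change of 4.51 times. A ratio within a library does not depend on how that library was scaled.

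**Figure D2:**
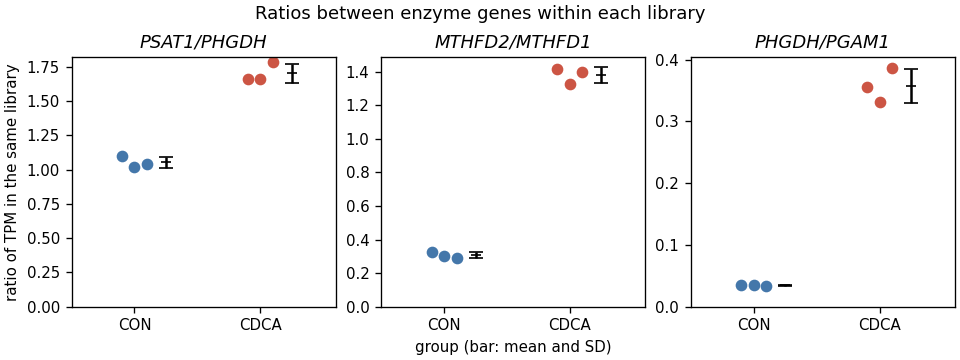
Ratios of TPM within each library for PSAT1 to PHGDH, MTHFD2 to MTHFD1 and PHGDH to PGAM1 in CON (blue) and CDCA (red); points are libraries and black bars are the mean and SD of 3 libraries. All 3 ratios were higher in each CDCA library than in any CON library, and that of MTHFD2 to MTHFD1 passed from below 1 to above 1.

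ALDH1L2, the mitochondrial formyltetrahydrofolate dehydrogenase, releases one-carbon units as carbon dioxide and makes NADPH. It was listed at 0, 0 and 0.08 TPM across CON and at 5.52, 3.11 and 5.06 TPM across CDCA. The gene was near 0 in all CON libraries and listed in all CDCA libraries, with the lowest CDCA value in replicate 2. No ratio is given against a group near 0. On the scale of TPM + 1 the log2 fold change was 2.41 (SE 0.19), and it was 5.22 with a pseudocount of 0.1 TPM, so its size rests on that setting. Together SHMT2, MTHFD2 and ALDH1L2, the mitochondrial enzymes, summed to 37.1 ± 2.1 TPM in CON and 63.5 ± 2.8 TPM in CDCA (SD, n = 3 each).

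ASNS, asparagine synthetase, is a standard target gene of the amino acid response. Its 1 listed transcript was at 0, 0 and 0.08 TPM across CON and at 0.19, 0.02 and 0.08 TPM across CDCA. The groups overlapped near 0, and no difference was detectable. The limit given for SHMT1 holds here too, and whether the listed transcript is the one these cells would use was not tested.

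The order of listed levels differed between the groups. A gene's sum may miss transcripts that are not listed, so this order is one of listed TPM only. In CON it ran from MTHFD1 through SHMT2, PSAT1, PHGDH and MTHFD2 to PSPH, with SHMT1, ALDH1L2 and ASNS near 0. PSAT1 and PHGDH overlapped there, as did the 3 genes near 0, and the other neighbours did not. In CDCA the order was PSAT1, PHGDH, SHMT2, MTHFD2, MTHFD1, PSPH, ALDH1L2, ASNS and SHMT1. PSPH and ALDH1L2 overlapped in CDCA, and the other neighbours were apart. MTHFD1 thus stood at position 1 in CON and at position 5 in CDCA. By level it stood above 86.8% of the tested genes in CON and above 72.4% in CDCA, while PSPH stood above 11.3% and 38.7%.

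**Figure D3:**
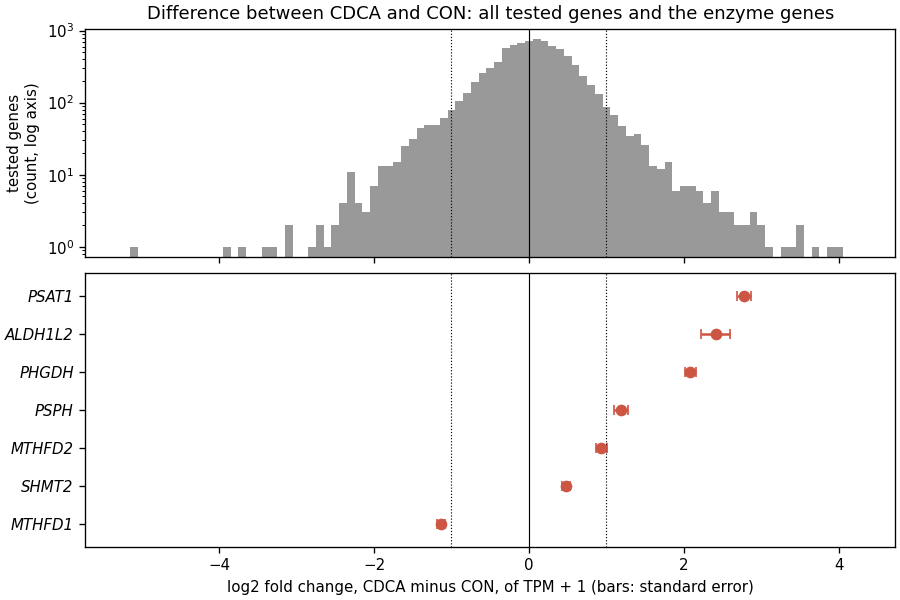
Top, number of tested genes (log axis) by log2 fold change of TPM + 1, CDCA minus CON, for all 8708 genes; bottom, the 7 enzyme genes in the fit with standard errors, and dotted lines at a size of 1. PSAT1 (2.77), ALDH1L2 (2.41), PHGDH (2.09) and PSPH (1.19) lay beyond the upper line and MTHFD1 (-1.13) beyond the lower one, with MTHFD2 and SHMT2 between them.

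The spread between libraries was small for most of these genes. Without ALDH1L2, the coefficient of variation of those in the fit ran from 3.87% to 8.67% in CON and from 2.78% to 11.6% in CDCA, where the medians over all tested genes were 8.66% and 8.06%. ALDH1L2 varied by 28.0% in CDCA. Among the CDCA libraries, replicate 2 was the lowest for 6 of the 7 genes in the fit, as it was for 38.8% of all tested genes. Among the CON libraries, replicate 3 was the lowest for 6 of the 7, and for 43.8% of all tested genes. When single libraries were dropped, the log2 fold change stayed between 2.03 and 2.14 for PHGDH, 2.68 and 2.84 for PSAT1, -1.17 and -1.11 for MTHFD1, and 0.88 and 0.99 for MTHFD2.

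TPM are shares of a library, and the share of the mtDNA-encoded mRNAs differed between the groups. With totals taken without those mRNAs, the log2 fold changes were 1.94 for PHGDH, 2.62 for PSAT1, 1.08 for PSPH, 0.33 for SHMT2, 0.79 for MTHFD2, 2.35 for ALDH1L2 and -1.28 for MTHFD1. Each was lower than under the deposited scaling, and each gene kept its side of the threshold. The median over all tested genes went from 0.05 to -0.08 with this scaling. A higher TPM cannot tell more mRNA in each cell from more cells that hold it.

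The table lists several transcripts for some of these genes, without transcript IDs, so they are named here by rank of mean level. RSEM, the tool behind the values, divides reads that match several transcripts by estimation, so levels of single transcripts are less certain than sums. PHGDH had 8 listed transcripts, of which 2 carried nearly all of the signal. The first went from a mean of 11.0 TPM in CON to 50.6 TPM in CDCA and the second from 7.01 to 29.1 TPM, and 3 were at 0 in every library. The first held 60.1% ± 4.9 of the gene's TPM in CON and 62.7% ± 0.46 in CDCA (SD, n = 3 each), so its share differed by less than the spread in CON.

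All 3 listed transcripts of PSAT1 were higher in each CDCA library than in any CON library. The most abundant had means of 15.9 TPM in CON and 103 TPM in CDCA, the second 2.09 and 21.3 TPM, and the third was at 0.86 to 1.5 TPM in CON with a mean of 13.5 TPM in CDCA. The first held 82.8% ± 7.8 of the gene's TPM in CON and 75.0% ± 4.3 in CDCA (SD, n = 3 each), with overlapping libraries. For SHMT2 the balance differed. Its first transcript had means of 14.9 and 17.9 TPM, and its second had means of 8.94 and 15.6 TPM, a ratio of 1.75. The share of the first was 57.4%, 59.4% and 58.5% across CON and 51.2%, 47.5% and 51.3% across CDCA, without overlap. Both main transcripts of MTHFD1 were lower in CDCA, at 33.0 and 14.3 TPM for the first and at 4.63 and 2.41 TPM for the second. MTHFD2 rested on 1 transcript, which held 94.0% ± 1.7 of its TPM in CON and 97.4% ± 1.8 in CDCA (SD, n = 3 each).

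**Figure D4:**
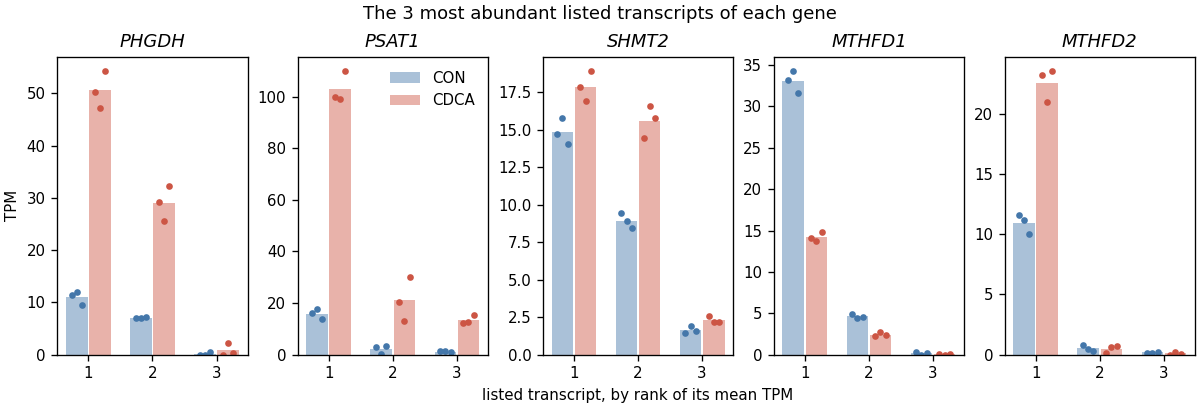
TPM of the 3 most abundant listed transcripts of PHGDH, PSAT1, SHMT2, MTHFD1 and MTHFD2 in CON (blue) and CDCA (red); bars are means of 3 libraries, points are libraries, and each panel has its own axis from 0. The 2 main transcripts of PHGDH, SHMT2 and MTHFD1 and all 3 of PSAT1 moved the same way within each gene, and the second SHMT2 transcript moved more than the first.

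The genes with profiles nearest to that of PHGDH over the 6 libraries were LMO4, ATP11B and WARS1. Nearness was the Euclidean distance between log2(TPM + 1) values, each centred on the gene's own CON mean, and the distances were 0.14, 0.168 and 0.177. LMO4 went from a mean of 9.05 to 40.4 TPM, ATP11B from 3.30 to 17.3 TPM, and WARS1, which encodes the cytosolic tryptophanyl-tRNA synthetase, from 27.4 to 125 TPM. Nearest to MTHFD2 were TMEM260, TAX1BP1 and XPOT, at distances of 0.0652, 0.0772 and 0.107. TMEM260 had means of 3.28 and 7.18 TPM, TAX1BP1 of 49.1 and 95.1 TPM, and XPOT, which encodes the exportin for tRNA, of 36.5 and 68.7 TPM. These genes were found by their likeness in the same libraries, so their own differences are descriptions too.

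Other genes of the pathways around these enzymes were tested in the fit over all genes, with limma and Benjamini-Hochberg adjustment over the 8708. The lists too were chosen with earlier results of these data known, so their counts and FDRs are not independent support. Over all tested genes, 29.3% passed an FDR of 0.05 as higher in CDCA and 23.9% as lower. With the fold threshold 7.42% were called in either direction, and the median log2 fold change was 0.05. With totals taken without the mtDNA-encoded mRNAs, the list medians were each lower than those given with each list, at -0.55 for the 3-phosphoglycerate list, -0.12 for the folate list, -0.29 for the glycine and serine list, 0.01 for the methionine list, -0.34 for the purine list, -0.39 for the glutamate, proline and asparagine list and 1.09 for the transcription factors, beside -0.08 for all tested genes.

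Around the start of the serine chain, 6 of the 8 genes listed for glycolysis near 3-phosphoglycerate were tested, and 0 rose and 4 fell at a limma FDR under 0.05, the same counts as at an unadjusted p under 0.05, with a median log2 fold change of -0.40. Among the 4, PKM lost its FDR under 0.05 in some alternatives, where it reached 0.28. PGAM1, phosphoglycerate mutase, which takes 3-phosphoglycerate onward in glycolysis, was listed at 521.39, 540.16 and 516.75 TPM across CON and at 224.63, 227.02 and 225.82 TPM across CDCA. It fell by 1.22 on the log2 scale (SE 0.03, limma FDR 2.5e-06) and was the 1 gene of this list past the fold threshold. PGAM1 has processed copies in mammalian genomes, and reads shared with them may have been divided between copies. ENO1, an enolase, fell from 7.31 ± 0.41 to 4.04 ± 0.61 TPM (SD, n = 3 each; limma FDR 0.0015). PGK1, which makes 3-phosphoglycerate, fell from 137 ± 9.5 to 90.3 ± 3.7 TPM (SD, n = 3 each; limma FDR 0.00029). PHGDH and PGAM1 both use 3-phosphoglycerate, and the ratio of PHGDH to PGAM1 in a library, chosen after the values were seen, was 0.0347 ± 0.00097 in CON and 0.358 ± 0.028 in CDCA (SD, n = 3 each). By listed TPM, PHGDH remained the lower of the pair in every library.

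Of 16 listed genes of the folate cycle and folate transport, 13 were tested, and 5 passed an FDR of 0.05 as higher and 3 as lower. Of these 8, ALDH1L1, FOLR1 and SLC46A1 averaged under 1 TPM in one group and entered the fit only through the group where they were high, so their differences are given as descriptions. The others included MTHFD2L, FPGS and GGH, which rose, and TYMS, which fell. The limma FDR of GGH was 0.065 with totals taken without the mtDNA-encoded mRNAs. The median log2 fold change of the list was 0.02. TYMS, thymidylate synthase, which uses a folate one-carbon unit to make thymidylate, was listed at 20.72, 20.67 and 17.22 TPM across CON and at 7.97, 7.38 and 7.34 TPM across CDCA. It fell by 1.26 on the log2 scale (SE 0.08, limma FDR 5.4e-05). ALDH1L1, the cytosolic relative of ALDH1L2, was listed at 0.53, 0.13 and 0.93 TPM across CON and at 2.67, 2.04 and 1.93 TPM across CDCA. The groups did not overlap, and the log2 fold change was 1.10 (SE 0.22), just past the size a call needed. The call was lost without CON replicate 2 or without CDCA replicate 1, where its log2 fold change fell under 1, and the log2 fold change ran from 0.90 to 2.11 over the alternatives. SLC46A1, the proton-coupled folate transporter, had means of 2.56 ± 1.0 TPM in CON and 0.83 ± 0.14 TPM in CDCA (SD, n = 3 each), with a log2 fold change of -0.93, and was past the fold threshold in 5 of the alternatives. Named for their role after their values were seen, the mitochondrial relatives of the MTHFD genes did not follow the size of MTHFD2. MTHFD2L rose by 0.37 (SE 0.07, limma FDR 0.0048), and MTHFD1L, at 9.77, 7.2 and 8.14 TPM in CON and 11.02, 7.5 and 10.95 TPM in CDCA, did not pass (limma FDR 0.35).

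Of 22 listed genes that use or cleave glycine and serine, 10 were tested, with 3 that rose and 4 that fell at an FDR under 0.05 and a median log2 fold change of -0.14. SFXN3, a sideroflexin of the family of mitochondrial serine carriers, was listed at 22.51, 24.11 and 22.23 TPM across CON and at 9.3, 8.13 and 7.33 TPM across CDCA. It fell by 1.38 on the log2 scale (SE 0.09, limma FDR 4.2e-05) and was the 1 gene of this list past the fold threshold. ALAS1, which condenses glycine with succinyl-CoA in the first step of haem synthesis, rose from 19.1 ± 1.4 to 36.3 ± 0.60 TPM (SD, n = 3 each; limma FDR 5.8e-05). SPTLC3, a subunit of serine palmitoyltransferase, rose from 8.03 ± 0.65 to 13.8 ± 1.0 TPM (SD, n = 3 each; limma FDR 0.00047). Of the glycine cleavage system, named after the values were seen, GLDC and AMT were listed at no more than 0.46 TPM and were not tested, while GCSH rose by 0.58 (SE 0.05, limma FDR 0.00014) and DLD, which other enzyme complexes also use, fell by 0.28 (SE 0.07, limma FDR 0.012).

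Of 12 listed genes of the methionine cycle and transsulfuration, 8 were tested, with 3 that rose and 2 that fell at an FDR under 0.05 and a median log2 fold change of 0.16. CTH, cystathionine gamma-lyase, which completes the making of cysteine with sulfur from methionine and carbon from serine, was listed at 24.88, 24.16 and 19.75 TPM across CON and at 93.09, 88.52 and 93.06 TPM across CDCA. It rose by 1.96 on the log2 scale (SE 0.09, limma FDR 1.1e-05). CBS, the enzyme before it, which joins serine to homocysteine, was listed at no more than 0.77 TPM and was not tested. It is named here after its values were seen. AHCY, which makes homocysteine, fell from 142 ± 5.3 to 88.8 ± 8.1 TPM (SD, n = 3 each; limma FDR 0.0003). MTRR, among the 3 that rose, lost its FDR under 0.05 in some alternatives, where it reached 0.085. AHCYL2 had means of 1.58 and 2.46 TPM and did not pass (limma FDR 0.11).

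**Figure D5:**
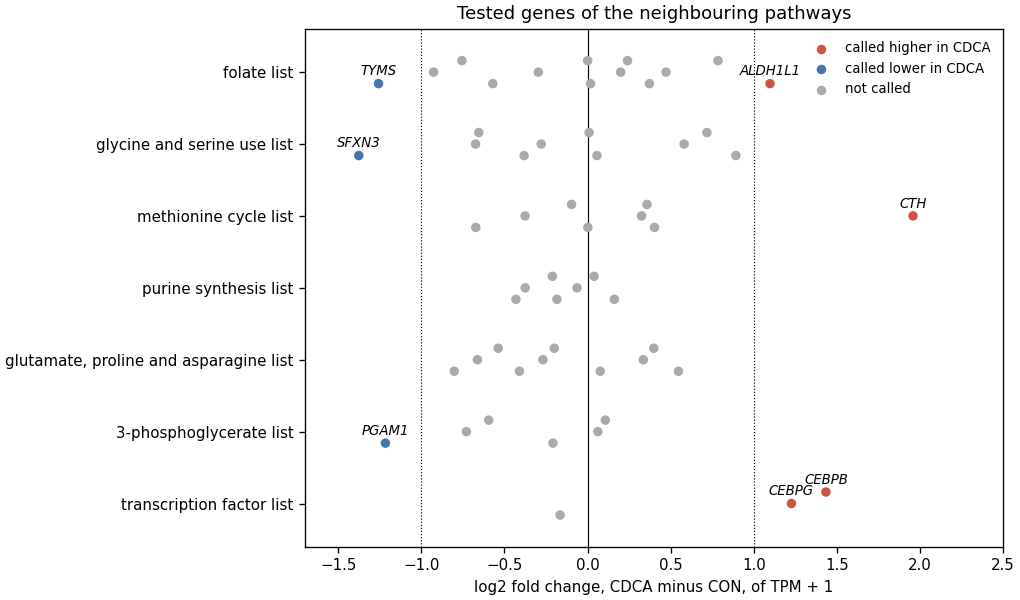
Log2 fold change of TPM + 1, CDCA minus CON, of each tested gene in the 7 lists of neighbouring pathways and transcription factors, with ALDH1L1 tested only through its CDCA level; red and blue mark genes called higher and lower (limma FDR under 0.05 and beyond the dotted lines at a size of 1) and grey marks the rest. CTH, ALDH1L1, CEBPB and CEBPG lay beyond the upper line and TYMS, SFXN3 and PGAM1 beyond the lower one, while the purine list and the glutamate, proline and asparagine list had no gene beyond either.

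Purine synthesis takes up formyl groups from folate. Of 11 listed genes, 7 were tested, with 0 that rose and 4 that fell at an FDR under 0.05, a median log2 fold change of -0.18, and none past the fold threshold in limma. At an unadjusted p under 0.05 the counts were 1 higher and 4 lower. PPAT, GART and PAICS, named after their values were seen, were listed at no more than 1.28 TPM and were not tested. The counts thus leave out several steps of the pathway. IMPDH1 fell by 0.43 on the log2 scale (SE 0.05, limma FDR 0.00051), from 24.3 to 17.7 TPM. ATIC, which uses formyl folate in the last steps of the pathway, fell by 0.38 (SE 0.05, limma FDR 0.0011), and PRPS2 by 0.21 (SE 0.07, limma FDR 0.036). Of the 4 that fell, PRPS1 and PRPS2 lost their FDR under 0.05 in some alternatives, where it reached 0.79 and 0.1.

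Of 15 listed genes of glutamate, proline and asparagine metabolism, 10 were tested, with 3 that rose and 5 that fell at an FDR under 0.05, a median log2 fold change of -0.23, and none past the fold threshold in limma. At an unadjusted p under 0.05 the counts were 3 higher and 6 lower. GLUD1, glutamate dehydrogenase, was listed at 650.49, 627.52 and 578.84 TPM across CON and at 356.67, 341.71 and 364.18 TPM across CDCA. It fell by 0.80 on the log2 scale (SE 0.05, limma FDR 4.6e-05). PYCR1, an enzyme of proline synthesis, rose by 0.55 (SE 0.15, limma FDR 0.02). Other genes of proline synthesis, named after their values were seen, went the other way. ALDH18A1 fell by 0.54 (SE 0.06, limma FDR 0.00048) and PYCR3 by 0.41 (SE 0.06, limma FDR 0.002). Each of the 3 genes that rose lost its FDR under 0.05 in at least 1 alternative, where the FDR reached 0.28 for PYCR1 and 0.12 for ASNSD1 and GPT.

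Of 4 listed transcription factors known to act on these genes, 3 were tested, and 2 rose and 1 fell at an FDR under 0.05. Their median log2 fold change was 1.23. CEBPB, a leucine zipper protein that can pair with ATF4, was listed at 33.47, 46.39 and 45.48 TPM across CON and at 113.31, 123.26 and 104.39 TPM across CDCA. It rose by 1.43 on the log2 scale (SE 0.13, limma FDR 0.00018). CEBPG, another partner of ATF4, rose by 1.23 (SE 0.10, limma FDR 0.0001), from 5.11, 4.74 and 3.98 TPM to 12.92, 11.2 and 12.17 TPM. MYC fell by 0.17 (SE 0.04, limma FDR 0.014, and up to 0.21 over the alternatives). ATF4 itself was listed with 1 transcript at no more than 0.04 TPM in any library and was not tested, and its activity, which is set largely at translation, was not measured.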

How the data were processed

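Total RNA of IPEC-J2 cells was sequenced on an Illumina instrument in 3 CON and 3 CDCA libraries. The authors used RSEM for quantification, and the deposited values are TPM, given to 2 decimals or fewer, of 63041 transcripts of 31908 gene IDs. The submitters' processing notes name Bowtie 0.12.2 and mm10, a mouse build, while the gene IDs are those of the pig. The annotation is not given in the sources used here, so no coordinates are printed. The authors tested with edgeR, a test for counts, which could not be run on TPM.

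Transcripts were summed by gene ID. Symbols came from the deposited table (16719 IDs), a table of Ensembl IDs (782) and RefSeq (573), which together named 18074 IDs. For 267 IDs the first and the second source differed, and the deposited symbol was kept. Genes averaging 1 TPM or more were tested with limma 3.58.1 in R 4.3.3 (lmFit, eBayes with a trend) on log2(TPM + 1), with Benjamini-Hochberg adjustment. A call needed an FDR under 0.05 and a log2 fold change over 1 in size. The steps were tested on simulated data.

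The enzymes and gene lists were chosen with earlier results of these data known. Named genes were the 9 enzymes, every called gene and the 3 largest tested log2 fold changes of each list, and the 3 nearest profiles to PHGDH and MTHFD2. 1 gene that this rule names is not reported here. ASNS, under the filter, was given no nearest profiles, and no ratio was taken to SHMT1, near 0. List symbols SRR, BHMT2, PFAS, IMPDH2, PRODH, KRT19 and ALPI were not matched. Alternatives were other pseudocounts, filters, scalings, gene values, a replicate block and leaving out each library.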

Additional observations from a re-analysis of the deposited data

How the results depend on the processing

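The number of enzyme genes past the call rule, 4 higher and 1 lower, was the same under every alternative tried. Over all genes, 306 were called higher and 340 lower. With a pseudocount of 0.1 TPM, 509 were called higher and 505 lower, and with each library's listed TPM brought to 1000000 in sum 523 and 481 were. Leaving out each library gave 305 to 327 higher and 337 to 359 lower. With listed totals taken without the mtDNA-encoded mRNAs the median log2 fold change of all genes went from 0.05 to -0.08 and the calls from 47.4% higher to 32.4% (221 higher and 462 lower). With the replicate number as a block, 309 were called higher and 343 lower. Deviations of libraries with the same number from their group means correlated at -0.04, -0.09 and -0.05, which gave no sign of pairing by number. The labels do not say whether libraries of the same number were handled together, so pairing remains unknown. In the folate list 2 genes were called, 4 with a pseudocount of 0.1 TPM or rescaled TPM, 1 from the highest listed transcript, and 1 to 3 with a library left out (1 without CON replicate 2 or without CDCA replicate 1, where ALDH1L1 was lost, and 3 without CON replicate 1 or CON replicate 3, where SLC46A1 was gained). The glycine and serine list had 1 call, and 2 with a pseudocount of 0.1 TPM. The rescaled TPM gave 1 call rather than 0 in the glutamate, proline and asparagine list and 2 rather than 1 in the 3-phosphoglycerate list. The purine list had 0 calls by the rule that needs a fold threshold, under each alternative. The cause of these differences was not tested. The log2 fold change of no enzyme gene in the fit changed sign, while with totals without the mtDNA-encoded mRNAs the median of the folate list went from 0.02 to -0.12. The planned search of promoters for motifs was not run, since no promoter sequences were used here. Genes listed near 0, such as SHMT1, ASNS and ATF4, are not shown to be absent, since the listed transcripts cover only part of each library's TPM.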
